A study of Mus musculus with 2 samples.

Results

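The cells described here are the 305 cells that the authors placed in the cluster they named aNSC, for activated neural stem cells. It is 1 of 12 clusters deposited as separate tables, and its cells were taken by table membership alone, 305 of 10804 cells in all. The 197 WT cells came from a library of 5543 cells and the 108 iKD cells from a library of 5261 cells, and the other 11 clusters held 10499 cells. Single-cell RNA sequencing (10x Genomics) had been done on EYFP+ cells sorted from the adult mouse dentate gyrus (DG). It was meant to compare mice with and without an induced knockdown of VEGF in neural stem and progenitor cells.

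All mice of both groups carried NestinCreERT2, a tamoxifen (TAM)-activated Cre recombinase under the promoter of the stem cell gene Nestin, and a ROSA-STOP-EYFP reporter that Cre switches on. WT mice were VEGFWT/WT and iKD mice had both copies of Vegfa flanked by loxP sites. Every mouse was 7 to 10 wk old at the start and received TAM at 180 mg/kg/d for 5 d, and cells were sorted 21 d later. Each library pooled 5 littermates, and transcripts of both sexes were present in both. Each genotype is thus 1 library without replicates, and no difference below carries a test. Intervals are 95% and cover counting error only.

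The name aNSC did not match the genes these cells expressed. Genes that mark neural stem cells, intermediate progenitors and neuroblasts were at or near 0. Gfap (stem cells), Eomes (intermediate progenitors) and Dcx (neuroblasts) had 0 UMIs (unique molecular identifiers, 1 per captured transcript) in the 305 cells. A limit of 3 counts allows a UMI of each in up to 0.984% of cells, which does not limit the cells that express it. Sox2 had 1 UMI, and Nes, the gene whose promoter drives the Cre, had 5 UMIs in 5 cells. The 12 fixed microglia genes, among them Cx3cr1, P2ry12, Tmem119, C1qa and Csf1r, had UMIs in a median of 99.7% of the cells. The genes that separated the cells from the other clusters were those of the interferon response: 65 of the 81 interferon-response genes that passed a minimum level were at least 2-fold higher than in the other 11 clusters, and 0 were 2-fold lower. Among all 4047 genes compared, 2.57% were 2-fold higher. Of the 81, 51 passed the level through the aNSC table alone and had to be higher there. Of the 30 that also reached it in the other 11 clusters, 16 were 2-fold higher, beside 0.753% of all genes that reached it there. The cells are therefore called below by their table, the aNSC table, or by these genes.

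Type I interferons (the alpha and beta interferons) are secreted when a cell senses viral or misplaced nucleic acid. They bind the receptor pair Ifnar1 and Ifnar2, whose kinases activate a complex of transcription factors, Stat2 and Irf9 among them. The complex binds the interferon-stimulated response element (ISRE) in promoters and turns on a set of antiviral genes. Microglia, the resident macrophages of the brain, express these receptors, and a small subset of microglia with high interferon-induced genes is well known from the adult and ageing mouse brain.

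Depth was similar to that of the rest. Cells of the aNSC table held 1819 to 11996 UMIs with a median of 8073 (WT 8341, iKD 7537), against a median of 7550 in the other 11 clusters. The median number of genes was 3143. Of the barcodes, 9 occurred in both libraries, and 0 of them were in the aNSC table. Xist together with a Y-linked gene, a sign of 2 cells in a droplet, was found in 4 of the 305 cells (1.31%, interval 0.358 to 3.32) and in 148 cells of the other 11 clusters (1.41%). The level of a gene below is the mean over cells of its counts per 10,000 UMIs of the cell, cells without a UMI included. A log2 ratio compares 2 levels after adding 0.01 to each.

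Levels reached 0.5 in the aNSC table or in the other 11 clusters for 4047 genes. Of these, 104 were at least 2-fold higher in the aNSC table (2.57% of the genes compared) and 4 were at least 2-fold lower (0.0988%). The interferon lists (transcription factors, antiviral effectors, ISG15 conjugation, PARP genes, Schlafens, PYHIN family, GTPases, TRIM family and MHC class I pathway) were chosen with earlier results of these data known and held 135 genes, of which 130 had a row and 81 passed the level. Of the 104 higher genes, 62.5% were on these lists. The median log2 ratio of the 81 was 2.17, against -0.04 for all 4047 genes. Because clusters are made from expression, these counts describe the cluster and test nothing.

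The level filter by itself favours genes that are high in the aNSC table, so the 81 were split by how they passed. A group of 51 passed through the aNSC table alone and had to be higher there. The other 30 also reached the level in the other 11 clusters, and 16 of these were 2-fold higher, whereas of all 3849 genes that reached it there 29 were (0.753%). A further 49 interferon genes were under the level on both sides, 44 of them with a log2 ratio above 0. Only Slfn4, Ifi44l, Ifi202b and Gbp10 had 0 UMIs in the aNSC table.

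**Figure D1:**
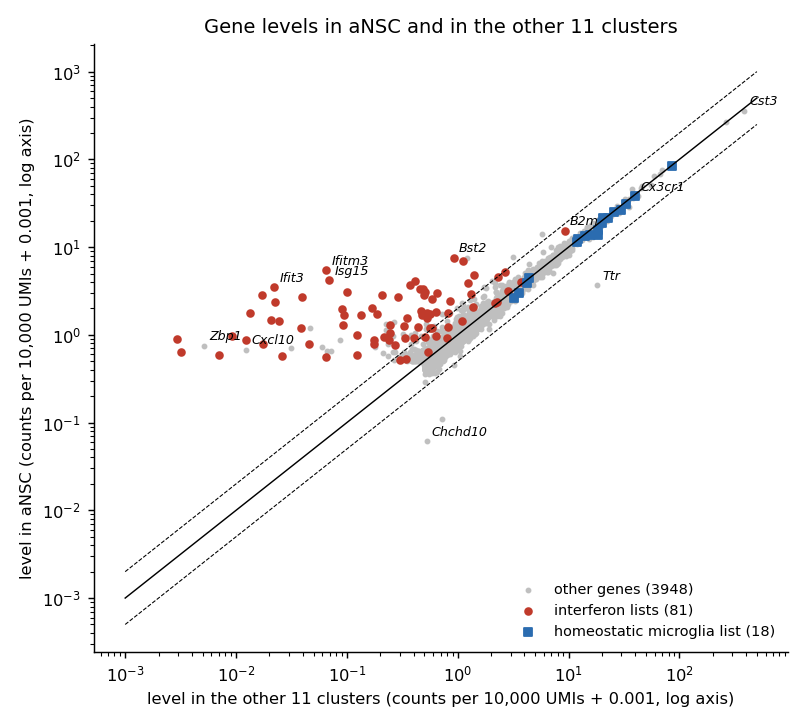
Mean level of each of 4047 genes in the aNSC table (vertical log axis) against its level in the other 11 clusters (horizontal log axis), both in counts per 10,000 UMIs plus 0.001. Red points are the 81 interferon genes, blue squares the 18 homeostatic microglia genes and grey points the other genes, with the solid line at equal levels and the dashed lines at 2-fold. Most red points lie above the upper dashed line, while the blue squares follow the solid line.

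The same genes stood out in each library and sex. Within WT cells and within iKD cells taken alone, 64 of the 65 interferon genes were 2-fold higher in the aNSC table, and 61 were in female and in male cells taken alone. The 65 genes were chosen on the same cells pooled, so this agreement was largely set in advance and tests nothing. Male cells of the aNSC table were 139 WT and 6 iKD cells. Of the 104 higher genes, 95 had their highest level of all 12 clusters in the aNSC table. Genes just past 2-fold were Nmi (log2 ratio 1.02) and Gbp7 (1.03), and those just short of it were Cd47 (0.99), H2-K1 (0.97) and H2-D1 (0.94).

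Antiviral effectors held the genes with the largest single ratios, although the medians over members past the level were larger for ISG15 conjugation (5.43) and the PYHIN family (5.20) than for the antiviral effectors (3.68). All 25 members of this list that passed the level, of 39 with a row, were 2-fold higher, beside 2.57% of all genes. Many of them, Ifit3 and Ifit2 included, passed it through the aNSC table alone and had to be higher there. The list medians share this limit. Ifit3, whose product binds viral RNA as part of the IFIT complex, was at 3.80 in WT and 2.85 in iKD cells of the aNSC table and at 0.0210 in the other 11 clusters, a log2 ratio of 6.81 (interval 6.57 to 7.06). It was detected in 67.9% of the aNSC-table cells and in 1.49% of the others. In no other cluster did its level pass 0.0731, the value in the Astrocytes table.

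Ifitm3, a membrane protein that blocks the entry of viruses, was at 6.02 in WT and 4.45 in iKD cells against 0.0639 elsewhere (log2 ratio 6.21, 6.06 to 6.36), with UMIs in 69.2% against 3.08% of cells. Bst2, or tetherin, which holds budding virus at the cell surface, was already present in the other clusters. Its level was 8.10 in WT and 6.57 in iKD cells against 0.918 (log2 ratio 3.03), and it was detected in 94.8% against 46.9% of cells. Rtp4 was at 3.17 and 2.82 against 0.0986 (4.82). Both genotypes were above the other clusters for each of these genes.

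Further effectors had smaller levels with the same pattern. Ifit2 (log2 ratio 6.77), Ifit3b (6.24), Ifit1 (5.75) and the 2-5A synthetase genes Oasl2 (6.32) and Oas1a (4.92) were close to 0 outside the aNSC table. Rsad2, which encodes viperin, had a log2 ratio of 5.71 but UMIs in only 40 WT and 21 iKD cells. Eif2ak2, the kinase PKR that halts translation when it binds double-stranded RNA, was higher at a log2 ratio of 2.58 and was detected in 27.3% of cells of the other clusters as well. Ifit3 and Ifit3b are near-identical copies, as are members of the Oas1, Trim30 and Phf11 groups, so how reads were divided between such copies is uncertain. Mx1 and Mx2 were not analysed here.

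Promoters of leading genes are shown because the ISRE is the sequence through which type I interferon signalling is known to act. The letters searched were GAAA, any 2 bases, and GAAA (GAAANNGAAA) on either strand, in RefSeq windows of GRCm38.p6 from 250 bases before to 50 bases after each start. Printed are the 250 bases before the start, 5′ to 3′ on the gene's strand, with matches in capitals. Each lies directly upstream of the annotated transcript.

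Ifit3 (chr19:34583279-34583528, plus strand): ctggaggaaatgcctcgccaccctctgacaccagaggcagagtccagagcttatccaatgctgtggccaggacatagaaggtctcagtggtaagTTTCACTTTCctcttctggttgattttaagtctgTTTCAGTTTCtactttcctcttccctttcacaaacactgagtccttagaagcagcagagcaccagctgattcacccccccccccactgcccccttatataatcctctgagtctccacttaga
Ifit3b (chr19:34607707-34607956, plus strand): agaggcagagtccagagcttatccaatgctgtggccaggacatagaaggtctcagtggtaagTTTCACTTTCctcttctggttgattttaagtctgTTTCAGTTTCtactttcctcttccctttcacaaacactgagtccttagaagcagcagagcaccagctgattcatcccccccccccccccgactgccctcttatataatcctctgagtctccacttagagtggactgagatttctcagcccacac
Slfn5 (chr11:82951852-82952101, plus strand): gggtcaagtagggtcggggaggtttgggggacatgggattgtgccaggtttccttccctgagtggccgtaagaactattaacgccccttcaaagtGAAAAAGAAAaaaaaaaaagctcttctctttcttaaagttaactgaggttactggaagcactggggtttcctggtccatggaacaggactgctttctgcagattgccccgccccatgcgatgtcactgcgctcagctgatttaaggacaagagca
Ifitm3 (chr7:141010745-141010994, minus strand): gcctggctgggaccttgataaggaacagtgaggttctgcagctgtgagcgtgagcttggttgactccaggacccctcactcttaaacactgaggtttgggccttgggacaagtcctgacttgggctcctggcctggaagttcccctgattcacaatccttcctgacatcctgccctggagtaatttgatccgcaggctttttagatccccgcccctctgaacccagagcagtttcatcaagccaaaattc
B2m (chr2:122147437-122147686, plus strand): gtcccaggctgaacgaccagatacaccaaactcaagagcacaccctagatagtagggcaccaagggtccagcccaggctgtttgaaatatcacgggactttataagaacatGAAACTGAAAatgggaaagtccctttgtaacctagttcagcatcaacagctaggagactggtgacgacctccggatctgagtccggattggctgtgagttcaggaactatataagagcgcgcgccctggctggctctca

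The Ifit3 and Ifit3b windows hold 2 matches each and share an unbroken run of 169 bases. The matches end 147 and 113 bases before the start in Ifit3 and 179 and 145 bases before it in Ifit3b. Slfn5 has 1 match at 146 bases and B2m, one of the 3 genes given as markers of the aNSC cluster, 1 match at 130 bases. The window of Ifitm3 holds 0 matches, as do those of Ifit2 and Oasl2, which says only that these letters are not in these windows.

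Over all genes with a RefSeq window, 1079 of 27025 (3.99%) held the ISRE letters, against 52 of the 106 interferon genes that had a window (49.1%, interval 39.2 to 59.0). The share was the same among the interferon genes that were 2-fold higher in the aNSC table (26 of 53) and among those that were not or were under the level (26 of 53). It was 9 of 10 for the interferon-induced GTPases, 8 of 11 for the PYHIN family, 8 of 13 for the TRIM family and 15 of 34 for the antiviral effectors. The shorter letters of the gamma-activated site, TTCNNNGAA, which reads the same on both strands, were in 9.55% of all genes and in 21 of the 106 interferon genes (19.8%). The 2 sets of letters overlapped in 3 of 125 interferon windows. Such matches are a description of the sequence, not of binding.

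UMIs of interferon ligands were not found in these cells. Each of the 20 ligand genes with a row, Ifnb1 and Ifng included, had 0 UMIs in the 305 cells, and by the same limit of 3 counts a UMI of each could be in up to 0.984% of cells. Cells that express them at a level too low to be captured are not limited by this. The receptors and their kinases were present and near the level of the other clusters, with 0 of 6 genes over the level 2-fold higher. Since 2.57% of all genes were, 0 of 6 says little by itself. Ifnar2 was at 2.98 in both genotypes against 2.77 in the other 11 clusters (log2 ratio 0.11), Jak1 at 2.56 in both against 2.58 (-0.01), and Ifngr1 at 6.36 in WT and 6.27 in iKD cells against 7.68 (-0.28). Ifnar1 was under the level, at 0.453 against 0.484. So the cells differed from the others in response genes, while their receptor genes lay within 1.5-fold.

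Transcription factors of the response were 2-fold higher in part, Irf7, Stat2 and Irf9 among them. Irf7, which amplifies the type I response, was at 1.55 in WT and 1.35 in iKD cells against 0.0195 elsewhere (log2 ratio 5.66, 5.37 to 5.94). Stat2 (3.15) and Irf9 (1.42), both of the ISRE-binding complex, were higher as well. Irf7, Stat2 and Irf9 passed the level through the aNSC table alone and had to be higher there. Irf1 (0.90) was short of 2-fold. Irf2 (0.18), Irf8 (0.10), a factor microglia need, and Irf5 (0.08) were close to the other clusters.

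The sensors of nucleic acid divided in a similar way. Zbp1, a sensor of Z-form nucleic acid, was at 0.825 in WT and 0.617 in iKD cells and 0.00412 elsewhere (log2 ratio 5.75, 5.21 to 6.34). Dhx58 (3.42), Ddx60 (2.53), Ddx58 (2.33) and Ifih1 (2.32), the cytosolic RNA sensors RIG-I and MDA5 and their relatives, were higher too. The DNA sensor Cgas (0.68) and its adaptor Tmem173 (0.10), and the endosomal receptors Tlr3 (0.76) and Tlr7 (0.13), were under 2-fold. That made 5 of 9 over the level, beside 2.57% of all genes. All 5 passed the level through the aNSC table alone and had to be higher there.

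Members of the remaining effector families that passed the level were mostly higher, beside 2.57% of all genes. Many of them had passed it through the aNSC table alone. Isg15, a ubiquitin-like protein attached to other proteins, was at 4.49 in WT and 3.56 in iKD cells against 0.0681 elsewhere (log2 ratio 5.74, 5.59 to 5.89). Usp18 (5.43), which removes it and damps the receptor, and Herc6 (2.50), a ligase that attaches it, completed 3 of 3 over the level. All 4 over the level of the PARP group were higher, led by Parp14 (2.85), and all 3 Schlafens over the level, of 7 with a row, led by Slfn5 (6.23). In the PYHIN family, sensors and regulators that bind DNA, 4 of 5 over the level, of 12 with a row, were higher, led by Ifi204 (5.82), and Aim2 (0.08), the DNA sensor of the inflammasome, was not. The reads of PYHIN and Schlafen genes can be shared between close paralogs.

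Interferon-induced GTPases, which attack the vacuoles of intracellular pathogens, were 2-fold higher in 5 of 5 over the level, among them Gm4951 (4.03), Irgm1 (2.37) and Igtp (2.07). Their list had 18 genes with a row, most of them under the level. Gm4951, Irgm1 and Igtp passed it through the aNSC table alone and had to be higher there. Of all genes compared, 2.57% were 2-fold higher. Of the TRIM family, ubiquitin ligases with antiviral roles, 10 of 13 were higher, and Trim30a was at 7.39 in WT and 6.15 in iKD cells against 1.13 (2.61). Trim5 (0.77), Trim56 (0.60) and Trim26 (0.19) were short of 2-fold. Some TRIM genes, Trim30c and Trim34a among them, also passed the level through the aNSC table alone.

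**Figure D2:**
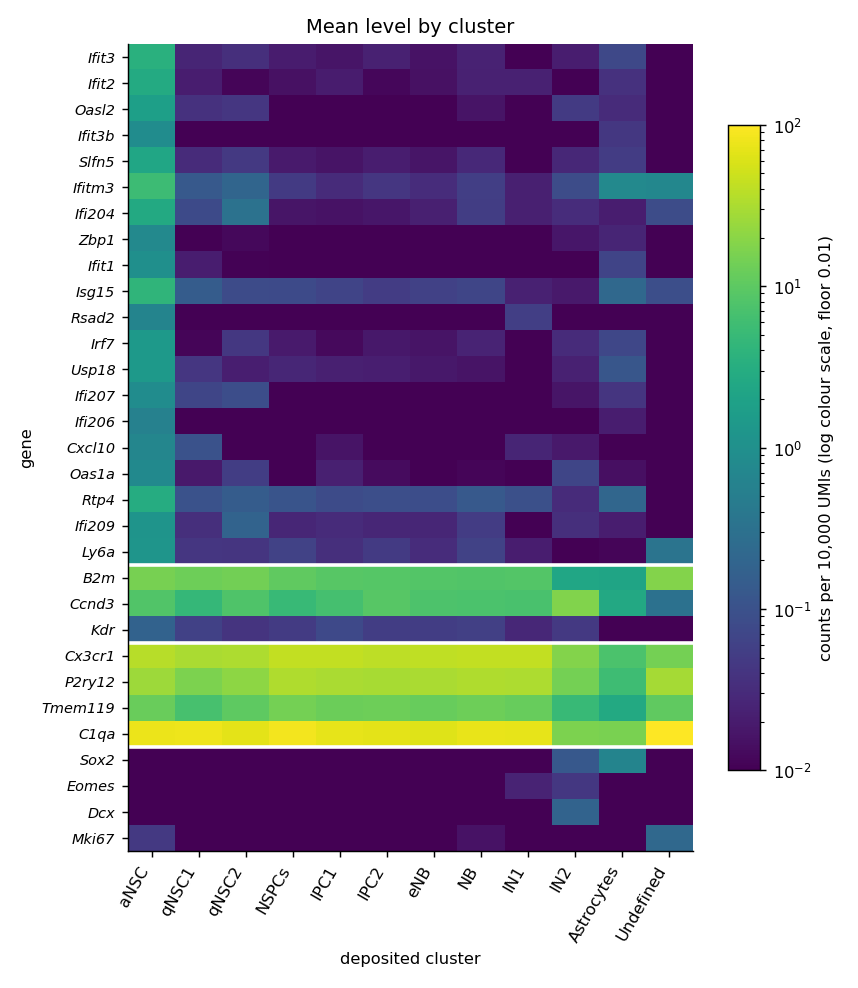
Mean level of each gene (rows) in each of the 12 deposited clusters (columns), on a log colour scale in counts per 10,000 UMIs with a floor of 0.01. From the top, the blocks hold the 20 genes with the largest ratio of the aNSC table over the others, the 3 genes given as its markers, 4 microglia genes, and 4 genes of stem cells, progenitors, neuroblasts and dividing cells. The top block is brightest in the aNSC column, the microglia block is bright in nearly all columns, and the lowest block is dark in nearly all.

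Genes of antigen presentation by MHC class I were higher by smaller ratios. Of 15 genes over the level, 7 were 2-fold higher, beside 2.57% of all genes. Some of the 7, Nlrc5 and Tap1 among them, passed the level through the aNSC table alone. The median log2 ratio of the 15 was 0.97. Nlrc5, the transactivator of the class I genes, had the largest ratio, at 0.902 in WT and 0.561 in iKD cells against 0.0445 (3.86). H2-T23 (1.67), the peptide transporter gene Tap1 (1.82) and the proteasome genes Psme1 (1.13), Psme2 (1.12) and Psmb9 (1.06) followed. B2m, the light chain of all class I molecules, was at 16.2 and 13.8 against 9.22 (0.74, 0.69 to 0.78), and its level in the aNSC table was exceeded in the Undefined table, at 18.2.

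Feedback on the pathway was mixed. Usp18, Isg15 and Usp25 (1.04) were higher, Socs1 was under the level at 0.254 against 0.0671, and Socs3 (-0.25), Ptpn2 (-0.13), Pias1 (-0.09) and Ptpn6 (0.02), phosphatases and other brakes on JAK-STAT signalling, were not 2-fold different. This list was 3 of 7 over the level, beside 2.57% of all genes. Usp18 and Isg15 passed the level through the aNSC table alone.

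Of the chemokines, 3 of 7 over the level were 2-fold higher, beside 2.57% of all genes. Ccl12, which attracts monocytes, was at 8.07 in WT and 6.46 in iKD cells against 1.22 (log2 ratio 2.61, 2.53 to 2.68) and was detected in 70.5% of cells. Ccl2, at 0.735 against 0.177, was detected in 17.7% and was higher in the qNSC1 table, at 1.504. It passed the level through the aNSC table alone and had to be higher there than in the other 11 clusters together. Cxcl10, the interferon-induced attractant of T cells, passed the level through the aNSC table alone. It had a log2 ratio of 5.01, but UMIs in only 3.28% of cells. Ccl3 (0.00), Ccl4 (0.03) and Ccl9 (0.00) did not differ by 2-fold. The chemokine list as a sum was highest in the qNSC1 table, at 43.4 against 13.95 in the aNSC table, with Ccl4 at 26.7 there. The study also uses the names qNSC1 and qNSC2 for these clusters the other way round, and the names here are those of the deposited tables.

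Cxcl10 rested on single cells. Of 136 UMIs in the iKD cells, 132 (97.1%) came from 1 cell of 9520 UMIs. That cell also held all 46 iKD UMIs of Cxcl9, 40 of the 45 of Ccl5, 30 of Ccl2 and 56 of Rsad2, together with 87 of C1qa and 7 of P2ry12. Its interferon UMIs came to 859 per 10,000, the highest of the table. A WT cell with 49 of the 61 WT UMIs of Cxcl10 held 80 of Ccl12 and 0 of Cxcl9. Levels of Cxcl10 were thus set mainly by 1 cell in each genotype.

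Outside the interferon lists 39 genes were 2-fold higher, the sensors and chemokines named above among them. They included Ly6a (4.46), the surface protein Sca-1, Fgl2 (4.15), Sdc3 (3.20), the RNA-editing enzyme Adar (2.09), Nampt (1.87), Tspo (1.35), Ly6e (1.31, 14.2 against 5.75) and Fcgr1 (1.26, 7.62 against 3.18), the high-affinity receptor for immunoglobulin G. Ly6a, Ly6e, Adar and Fcgr1 are known as genes that interferon induces, although the lists did not hold them. Of the 39 genes, 32 had a promoter window and 10 of these (31.3%) held the ISRE letters.

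The 4 lower genes were Chchd10 (-2.91), Enpp2 (-2.62), Ttr (-2.29) and St6gal1 (-1.03). The first 3 are highest in the Astrocytes table, at 34.4, 43.2 and 1019, and Ttr and Enpp2 are genes of the choroid plexus epithelium. Ttr was at 3.68 in the aNSC table and between 1.86 and 8.80 in the other clusters apart from the Astrocytes table. The ratios of these 3 genes thus move with the cells of that table in the reference.

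Genes of microglia did not separate these cells from the rest. The summed level of the 12 microglia genes was 414 in the aNSC table and 410 in the other 11 clusters (range over clusters 85.7 to 541), with 0 of 12 at 2-fold and a median log2 ratio of -0.04. Homeostatic genes such as P2ry12 (26.4 against 29.8) and Cx3cr1 (37.8 against 39.9) behaved likewise, 0 of 18 at 2-fold and a median of -0.08. With 2.57% of all genes 2-fold higher and 0.0988% lower, counts of 0 in lists this short say little by themselves. Among the 10 genes with most UMIs were Cst3, Malat1, C1qa, Tmsb4x, C1qb, Ctsd, C1qc, Actb and Ctss, by UMIs not scaled to transcript length. Across 6254 genes, the levels of the aNSC table correlated most closely with those of the qNSC2 table (Pearson r of log levels 0.965), and without the interferon genes (6172 genes) with IPC1 (0.983), as a description over clusters that share their libraries.

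Markers of most other cell types were at or close to 0, with exceptions carried by single genes. The summed level of the 9 neural stem cell genes was 0.109 per 10,000 UMIs (0.0590 to 6.64 over the other clusters, highest in the Astrocytes table), with 4 of the 9 at 0. All 6 genes of intermediate progenitors, all 6 of T and NK cells and all 5 of oligodendrocyte precursors were at 0. Neuroblast genes summed to 0.0142, endothelial genes to 0.298, of which Kdr gave 0.180, and border macrophage genes to 0.113. Choroid plexus genes summed to 3.84, of which Ttr gave 3.68, B cell genes to 1.85 (1.77 in the other 11 clusters), of which Ighm gave 1.60 with UMIs in 67.9% of cells, and oligodendrocyte genes to 0.709 (0.643). Monocyte genes summed to 0.246, above the highest of the other clusters, 0.161 in the IN2 table, and Plac8 gave 0.188 of it.

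Genes of the S phase summed to 1.99 (1.83 in the other 11 clusters), with UMIs of Slbp in 37.0% and of Pcna in 34.4% of cells. The 12 G2M genes summed to 0.266, against 0.0738 in the other 11 clusters. Mki67 (10 UMIs) and Top2a (11 UMIs) were found in 1 WT cell alone, which also held 5 UMIs of Birc5 and 63 of C1qa. It was 1 cell of 305 (0.328%, 0.00830 to 1.81).

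The 3 marker genes given for the cluster differed from the interferon genes in size. B2m is described above. Ccnd3, a D-type cyclin, was at 8.22 against 7.25 (log2 ratio 0.18) and highest in the IN2 table, at 17.6. Kdr, the receptor VEGFR2, had its highest level of the 12 clusters in the aNSC table, at 0.180 against 0.0559, from 42 UMIs in 33 cells (10.8%, 7.57 to 14.9) against 3.81% of the other cells. Of the 8 endothelial genes on the list, Kdr included, 4 had 0 UMIs. Vegfa itself had 4 UMIs, 3 in WT and 1 in iKD cells, so a knockdown could not be measured in these cells.

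Other programs of microglia were close to the rest, and their counts stand beside 2.57% of all genes. Of the genes of disease-associated microglia 1 of 5 over the level was 2-fold higher, Csf1 (1.26), which was at 0.577 and higher in the qNSC1 table, at 2.39, and in the Undefined table, at 0.584. At 0.235 in the other 11 clusters together, Csf1 passed the level through the aNSC table alone and had to be higher there. Trem2 (-0.05), Tyrobp (0.03) and Apoe (0.38) were under 2-fold, and Axl was under the level at 0.241 against 0.0216. Immediate early genes (0 of 15), glucocorticoid-response genes (0 of 9) and heat shock genes (0 of 8), which are known to respond to tissue dissociation or stress, held no 2-fold member. Among MHC class II genes Cd74 (1.96) was 1 of 4. At 0.238 in the other 11 clusters together, Cd74 likewise passed through the aNSC table alone. Its level of 0.953 was exceeded in the qNSC1 (1.43) and Undefined (1.09) tables and most of all in the qNSC2 table, and it rested on few cells.

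The response was graded between cells. Each cell was thinned to 4500 UMIs, which left 298 cells of the aNSC table and omitted 7 shallower ones. Interferon-list UMIs then ran from 23 to 392 per cell with a median of 72.5, against a median of 24 and a highest value of 100 in 9886 cells of the other 11 clusters. The means were 84.5 (SD 49.0 over cells) and 25.1 (SD 7.35), a ratio of 3.36. Of the 298 cells, 244 (81.9%) were above 47, the 99th percentile of the other clusters, and 4 cells of the other clusters reached the aNSC-table median. The medians of the other clusters ran from 9 in the Astrocytes table to 31 in the qNSC2 table.

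**Figure D3:**
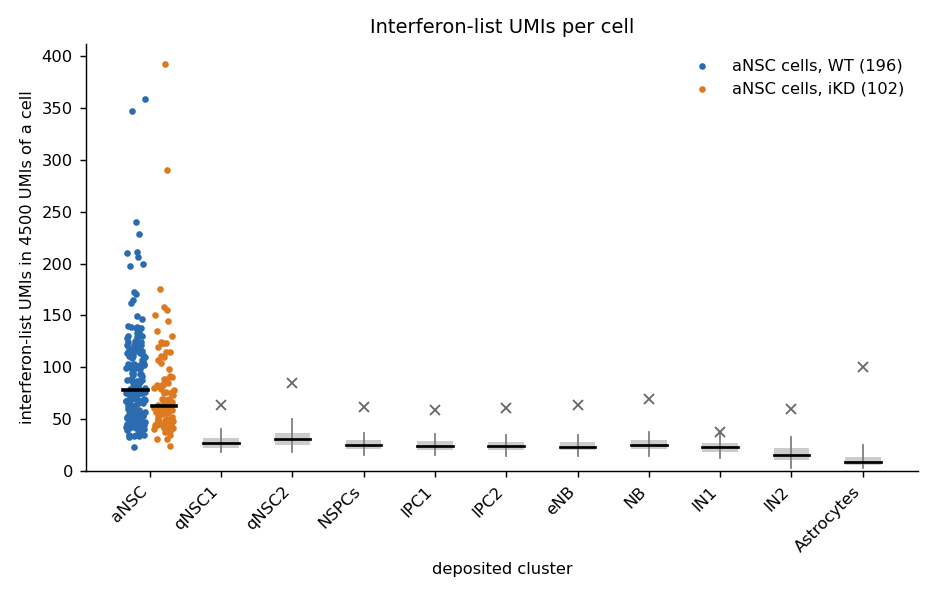
Interferon-list UMIs in each cell after thinning to 4500 UMIs (vertical axis) by deposited cluster (horizontal axis), with aNSC-table cells as points (blue WT, orange iKD) and black bars at medians. For the other clusters, boxes span the quartiles, lines the 5th to 95th percentiles and crosses mark the highest cell. The Undefined table has 0 cells of this depth. The aNSC-table medians of 78 (WT) and 62.5 (iKD) lie above the 95th percentiles of all other clusters drawn.

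How many of the 20 leading genes a cell expressed gave the same picture. The median cell of the aNSC table had UMIs of 9 of the 20, with a range of 1 to 19, and 251 of 305 cells (82.3%) had 5 or more. In the other 11 clusters the median was 0, 7991 of 10499 cells had none, and 15 (0.143%) had 5 or more. The most in any of these was 13, in a cell of the Astrocytes table. These 20 genes were chosen on the same cells, so the counts describe the cluster. A tail of 8 aNSC-table cells had 2 or fewer.

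Within the aNSC table the iKD cells were compared with the WT cells. Loss of VEGF in these cells was not shown, with Vegfa at 3 UMIs in WT and 1 in iKD cells. Levels reached 0.5 in either genotype for 4124 genes, of which 90 were at least 1.5-fold lower in iKD (2.18%) and 136 at least 1.5-fold higher (3.30%). The counting interval lay off 0 for 82 and 126 of them. These are differences between 2 libraries, and library, pool of animals and genotype cannot be told apart. Both sexes were scored in both libraries, with 6 iKD male cells in the aNSC table.

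Few interferon genes differed between iKD and WT cells by 1.5-fold. Of the 81 over the level, 55 had a log2 ratio below 0 and 26 above, with a median of -0.14 against 0.02 for all genes, 46.8% of which were below 0. Among female cells the summed level of the lists was 164.2 in WT and 170.7 in iKD cells, the opposite direction. At 1.5-fold, 3 were lower (3.70%), close to the 2.18% of all genes: Pml (-0.72), Nlrc5 (-0.67) and Irgm1 (-0.63). Rsad2 was the 1 higher (1.23%), at 0.494 in WT and 0.875 in iKD (log2 ratio 0.81, 0.35 to 1.27), and without the richest cell of each genotype it was at -0.44. For Ifit3 the ratio was -0.42 (-0.64 to -0.20), for Ifitm3 -0.44 (-0.62 to -0.26) and for Bst2 -0.30 (-0.45 to -0.15). Counting intervals were below 0 for 24 of the 81 and above 0 for 2. The same share over all genes was not computed, so nothing about the lists is drawn from these counts.

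Per cell, the thinned interferon UMIs had a median of 78 in 196 WT cells (mean 88.4, SD 48.3) and 62.5 in 102 iKD cells (mean 76.9, SD 49.6). By scored sex, from UMIs of Xist and of Y-linked genes, the medians were 55 in 38 WT female cells, 82 in 139 WT male cells, 62 in 91 iKD female cells and 65.5 in 6 iKD male cells. Among female cells the iKD median was thus the higher one. Outside the aNSC table these 4 groups had medians of 24 or 25. The lower iKD values moved with the sex shares, whose part in the difference was not tested.

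The sexes were unequal in the aNSC table. Of 177 WT cells that could be scored, 38 were female (21.5%, 15.7 to 28.3), and of 102 iKD cells 96 were (94.1%, 87.6 to 97.8). In the other 11 clusters the female shares were 63.6% and 76.2%. As a share of its library's cells of the same sex, the aNSC table took 7.19% of WT male cells (139 of 1932, 6.08 to 8.44) and 1.20% of WT female cells (38 of 3167, 0.850 to 1.64). It took 2.63% of iKD female cells (96 of 3650, 2.14 to 3.20) and 0.537% of iKD male cells (6 of 1117, 0.197 to 1.17). WT males thus gave the largest share and iKD males the smallest.

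**Figure D4:**
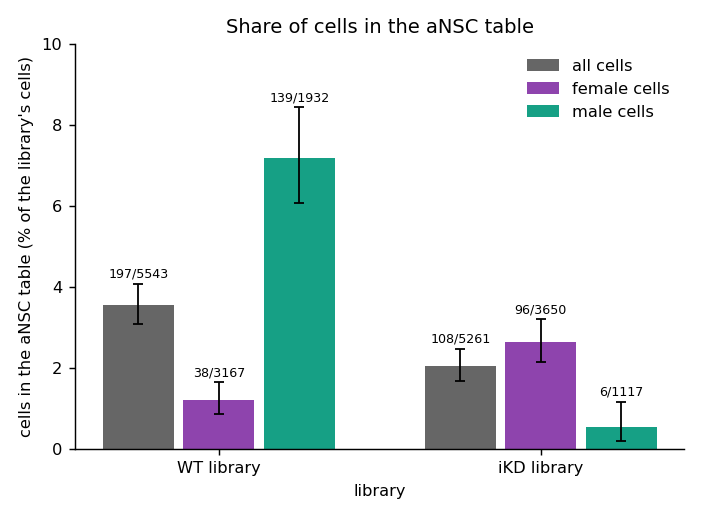
Percent of a library's cells that stand in the aNSC table (vertical axis), for all cells, female cells and male cells of the WT and iKD libraries (horizontal axis). Error bars are 95% exact binomial intervals and the labels give aNSC-table cells over all cells. Male cells have the larger share in WT (7.19% against 1.20%) and female cells in iKD (2.63% against 0.537%).

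Over all cells the share was 3.55% in WT (3.08 to 4.08) and 2.05% in iKD (1.69 to 2.47). Each pool held 5 mice, so a sex in a library stands for a few animals at most, and animals within a sex could not be separated. Since clusters are formed from expression, the size of this cluster and its gene levels are not independent measures.

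The lowest iKD ratios belonged to Y-linked genes, Ddx3y (-3.20), Uty (-2.96) and Eif2s3y (-2.37), and Xist was among the highest (2.32). The sex shares given above were scored from Xist and Y-linked genes, so they move with these 4 genes by construction. Ddit4 (-1.91) and Fkbp5 (-1.06), which glucocorticoids induce, were also among the lowest, together with H1f0 (-1.39), Ttf1 (-1.01), Tmem258 (-0.94) and Cdkn1a (-0.93). Fkbp5 was at 6.88 in WT and 3.29 in iKD cells. By sex it was at 8.04 in WT male cells and at 3.01, 3.35 and 2.74 in WT female, iKD female and iKD male cells, and the ratio among female cells was 0.15. In the other 11 clusters WT male cells stood apart in the same way, at 9.27 against 2.68 to 3.90.

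The 12 glucocorticoid-response genes summed to 31.0 in WT male cells of the aNSC table, 19.7 in WT female, 19.8 in iKD female and 17.4 in iKD male cells. The other 11 clusters gave 32.8 in WT male, 21.3 in WT female and 19.7 in iKD male cells. Ccnd3, a marker given for the cluster, followed them: 10.0 in WT male cells against 6.20 to 6.55 in the other 3 groups, and 10.1 against 6.26 to 6.72 outside the aNSC table. Its iKD ratio of -0.59 (9.32 and 6.20) moved with the WT male cells. Ttf1 and Tmem258 were lower in iKD female than in WT female cells as well, at 0.264 against 0.636 and 0.389 against 0.693, in 38 WT cells.

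Heat shock genes, chaperones that hold proteins in their folded form, had 1 of 8 members over the level at least 1.5-fold lower in iKD cells, beside 2.18% of all genes. All 8 had a log2 ratio below 0, with a median of -0.44 against 0.02 for all genes. Their sums were 39.0 in WT female and 33.6 in iKD female cells of the aNSC table, and 34.8 and 28.8 in those of the other 11 clusters. The sums had the same order in both sets of clusters.

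**Figure D5:**
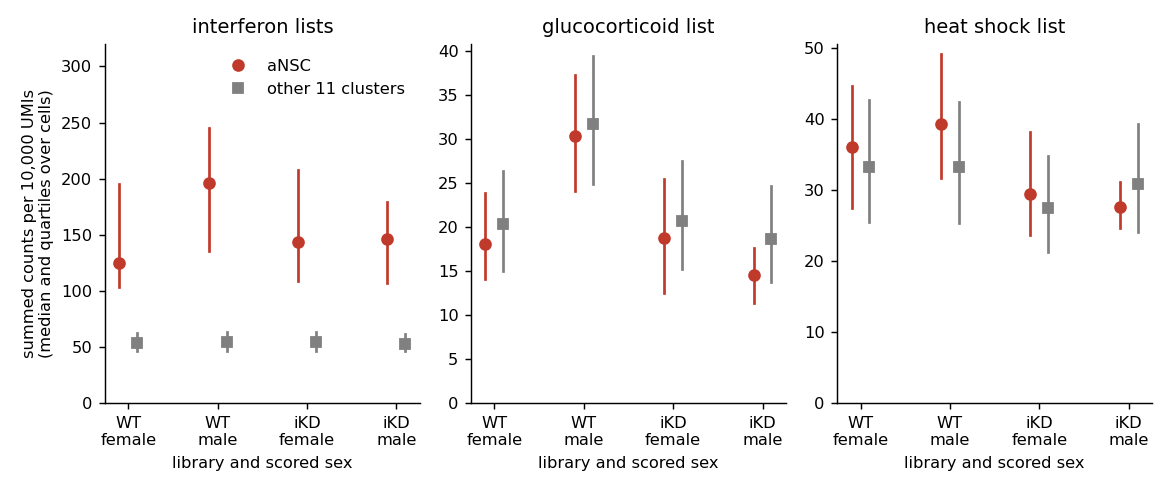
Summed level per cell, in counts per 10,000 UMIs (vertical axes), of the interferon, glucocorticoid and heat shock lists in cells of each library and scored sex (horizontal axes). Points are medians and lines the quartiles over cells, red for the aNSC table and grey for the other 11 clusters. The interferon lists separate red from grey in all 4 groups, and the glucocorticoid list separates WT male cells, mean 31.0 and 32.8, from the other groups in both sets of clusters.

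Ttr, the thyroid hormone carrier made by the choroid plexus, had one of the highest iKD ratios. It was at 0.149 in WT and 10.1 in iKD cells (log2 ratio 5.99, 5.44 to 6.60), with UMIs in 12.2% and 99.1% of cells. The same step was present outside the aNSC table. Over the 10 clusters other than the aNSC and Astrocytes tables, Ttr was at 0.112 to 1.09 in WT and 9.44 to 17.3 in iKD cells, with UMIs in 8.3 to 19% and 94.7 to 100% of cells. The iKD library held 130 of the 134 cells of the Astrocytes table, where Ttr is at 1019. A low level in nearly every cell of the library that holds most of the Ttr-rich cells was thus seen in each of its other clusters, and the part of free RNA in it was not tested.

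MHC class II genes rested on single cells. H2-Aa had 0 UMIs in WT and 39 in iKD cells, and 34 of the 39 were in 1 cell of 4051 UMIs. That cell also held 23 UMIs of H2-Ab1, 27 of H2-Eb1, 62 of Cd74, 158 of Apoe, 61 of Lyz2 and 5 of Pf4, a border macrophage gene, with 2 of P2ry12 and 0 of Tmem119. Another iKD cell, of 2036 UMIs, held 17 of the 18 iKD UMIs of Frmpd4 (4.34). Without the richest cell of each genotype Frmpd4 was at -0.51 and Cxcl10 (2.05) at -0.81. Without these 2 iKD cells Cd74 (2.20) was at -0.97, H2-Ab1 (2.87) at -0.17 and H2-Eb1 (4.67) at -1.40, so the direction of each of these genes was set by 1 or 2 cells.

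Apoe, the lipid carrier, was at 3.58 in WT and 9.13 in iKD cells (1.35), and it too rested on few cells. Of its 604 iKD UMIs, 158 were in the cell of 4051 UMIs named above and 92 in another. Without the first the log2 ratio was 0.64, and without both it was 0.26, an alternative chosen after seeing the data. By sex it was at 8.14 and 9.76 in WT and iKD female cells and at 2.48 and 1.40 in male cells, and without the first cell the iKD female level was 5.76, below that of WT. Outside the aNSC table its range over the 4 groups was 3.53 to 4.45.

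Cdk6, a G1 kinase, was at 1.51 and 2.81 (0.89, 0.62 to 1.15), with 1.45 and 2.94 in female cells. In male cells, of which 6 were iKD, it was at 1.60 and 1.40. Trem2, a lipid receptor of microglia, was at 17.2 and 12.9 (-0.41), with 15.8 and 12.9 in female cells and 17.7 and 12.1 in male cells. In the other clusters Trem2 was at 17.5 and 13.98 in female cells. Male cells there went the other way, at 17.3 in WT and 18.3 in iKD. Arhgap15 (2.99, 24 and 80 UMIs) and Nhs (1.77) were the other members of the highest 10. Kdr was at 0.207 and 0.131, from 31 and 11 UMIs (log2 ratio -0.62, -1.76 to 0.41), a difference that could not be resolved at this depth.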

How the data were processed

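EYFP+ cells sorted from the DG were measured by single-cell RNA sequencing in 1 WT and 1 iKD library. Per the labels, Cell Ranger 7.0.1 demultiplexed, aligned and deduplicated the reads and Seurat 4.1.1 processed the matrices. The submitters' processing notes also name CASAVA 1.8.2, HISAT2 2.0.6, Subread, featureCounts and the build GRCh38, with no role given, although the samples are mouse. The study's methods state that cells were filtered on gene number and mitochondrial share, and that both genotypes were integrated before clustering. The authors deposited natural log values, the log of 1 plus counts per 10,000 UMIs, in 1 table per cluster.

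Cluster, name and genotype were taken as deposited, and 0 columns were unused. UMI counts were recovered from the deposited values, and 100% of 32261786 values above 0 were whole within 0.01. No further cell filter and no doublet caller were applied. Genes were compared where the higher side had a level of at least 0.5, with 0.01 added to levels, at 2-fold between clusters and 1.5-fold between genotypes. Shares have exact binomial intervals, counts exact Poisson ones, and ratios binomial ones set around the ratio. A cell was scored female with a UMI of Xist and none of a Y-linked gene, and male in the converse case. Depth was compared by thinning each cell to 4500 UMIs. On simulated counts with 200 of 3839 genes changed, 200 had the right direction and 190 the true ratio within the interval. These counts were Poisson draws from a shared profile per group, without the spread between real cells. They check the calculation and counting error alone.

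Named genes were those of the lists, the 10 with the highest level, the 20 largest and 10 smallest cluster ratios, and the 10 largest and 10 smallest genotype ratios. Some of these genes are not reported here. Single cells were named after their values were seen. The members and lists were chosen with earlier results of these data known. Alternatives were other pseudocounts and level filters, each sex or genotype, other reference clusters, thinning, removal of the richest cells and a shorter promoter window. Python 3.11.15, numpy 2.4.6, pandas 2.3.3, scipy 1.17.1 and matplotlib 3.10.9 were used. With 1 library per genotype no test was run.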

Additional observations from a re-analysis of the deposited data

Results flagged for a closer look

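The share of a library's cells found in the aNSC table differed between the sexes in opposite directions in the 2 libraries. The male share minus the female share was 5.99 percentage points in WT (7.19% and 1.20%) and -2.09 percentage points in iKD (0.537% and 2.63%). With 1 library per genotype and 5 pooled mice in each, the difference between the libraries was not tested, and individual mice cannot be told apart from sex, or the library from genotype. Requiring 2 UMIs to score the sex gave 6.60% and 1.24% in WT and 0.728% and 2.63% in iKD.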

How the results depend on the processing

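No paired analysis was possible because each genotype has 1 library and no result comes from a test. Intervals cover counting error between cells of 1 library, so the spread between animals is unknown. The main counts were 104 higher, 4 lower and 65 interferon genes higher in the aNSC table, and 90 lower, 136 higher and 3 interferon genes lower in iKD.

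A pseudocount of 1 gave 35 higher, 1 lower and 31 interferon genes in the cluster comparison, and 5 lower, 12 higher and 0 interferon genes lower in the genotype comparison. No filter on low levels gave 342 higher and 394 lower, and 2901 lower, 2421 higher and 8 interferon genes lower in iKD. A level of at least 0.1 gave 188 and 53, and 636, 836 and 6. More genes are compared in both of these. In female cells 0 genes were lower in the aNSC table, in iKD cells 8, against the mean of the 11 cluster levels 102 and 1 against 7 clusters, those other than Astrocytes, IN1, IN2 and Undefined. Thinning gave 168 lower and 226 higher in iKD, female cells 324 and 380, and male cells, of which 6 were iKD, 1001, 1420 and 32 interferon genes lower. The cause was not tested. Female cells kept 78 of the 136 higher and 49 of the 90 lower genes.

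Some genotype ratios reversed, all of them log2 iKD over WT. After thinning, which left out the shallow cells, Cd74 was at -0.74, Frmpd4 at -1.07, H2-Ab1 at -0.050 and H2-Eb1 at -1.71. In female cells Cxcl10 was at -1.41 and Fkbp5 at 0.15. In male cells Cd74 was at -4.24, Cxcl10 at -5.36, Frmpd4 at -1.43, H2-Ab1 at -2.50, H2-Eb1 at -1.73, Nhs at -3.54, Eif2s3y at 1.19 and Uty at 0.17. These male values rest on 6 iKD cells, too few to show a direction. Cells were also scored male by UMIs of Y-linked genes, Eif2s3y and Uty among them. Leaving out cells was chosen after seeing the data. Without the richest cell of each genotype Cxcl10 was at -0.81 and Frmpd4 at -0.51, and without the 2 iKD cells named in the text Cd74 was at -0.97, Frmpd4 at -0.76, H2-Ab1 at -0.17 and H2-Eb1 at -1.40. Single-gene alternatives were tried for the marker genes and for the largest and smallest ratios, which were picked on the same cells. Of 462 alternative values of cluster ratios 0 reversed and 116 moved out of the counting interval. Because extreme ratios had been picked, the 0 was largely set in advance. Of 264 genotype ones 20 reversed and 52 moved. The ratio of interferon UMIs per cell was 3.43 unthinned against 3.36, and with the 250 bases before the start alone 3.46% of all genes held the ISRE letters and 8.13% the gamma-activated site.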
